A study of Mus musculus with 3 samples.

Results

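The genes of the cytosolic ribosomal proteins were compared between ureteric tree cells and the other cells of the embryonic mouse kidney, for the large 60S and the small 40S subunit apart. Members were all genes whose platform symbol is Rpl, Rplp or Rps followed by a number, with at most a letter and a digit after it, leaving out the S6 kinase genes. The platform held 67 such genes, and 62 of them, 40 of the 60S and 22 of the 40S subunit, had a value on all 3 arrays, among 3915 genes that did. Kidneys came from HoxB7-GFP transgenic embryos of both sexes, pooled, at 15.5 days post coitum. The HoxB7 promoter drives green fluorescent protein in the ureteric epithelium, and fluorescence sorting gave a GFP+ fraction and a GFP- fraction that holds all remaining kidney cells. Both fractions carried the transgene, and RNA of both was amplified and hybridised together on each array. No dye swap is stated. Each value is a log2 ratio, likely of GFP+ over GFP-, since the dyes are not stated, so 0 means equal signal and -1 a level in GFP+ cells that is lower by a factor of 2. In bulk samples, fewer cells of a type and less RNA per cell cannot be told apart.

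A ribosome is built from RNA and one copy of most ribosomal proteins, so cells make these proteins in matched amounts. The small subunit reads the messenger RNA, and the large subunit joins amino acids and passes the new chain through its exit tunnel. Messenger RNAs of ribosomal proteins are among the most abundant of growing cells, and most begin with a run of pyrimidines (C and T in the DNA) through which the mTOR pathway sets their translation.

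The fractions behaved as labelled. All 5 measured genes of a list of 10 ureteric epithelium markers were higher in GFP+ cells by limma over all genes, from Spint2 (mean log2 ratio 1.97 ± 0.20, SD, n = 3 arrays) to Cldn7 (2.36 ± 0.27). Macrophage markers (5 of 7 measured), stromal markers (3 of 6) and cap mesenchyme markers (4 of 5) had negative values on every array. So did the erythroid markers (3 of 5). By limma all of these passed as lower except the cap mesenchyme gene Cited1 (adjusted p = 0.056) and the erythroid gene Hba-a1 (adjusted p = 0.49). Hba-a1 had -0.079, -0.20 and -0.72 on arrays 1, 2 and 3. Array 1 stood apart from the others: over the 3915 genes its ratios had a Pearson's r of 0.080 with array 2 and 0.277 with array 3, whereas arrays 2 and 3 had 0.883. The genes of these correlations share arrays and labelling. Nothing in the labels tells if each array had its own pool of embryos, so the spread behind every p-value may be technical.

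Start-site sequences were used to describe the members apart from their names. RefSeq windows of GRCm38.p6 from 250 bases before to 50 bases after an annotated start were matched by symbol for 51 of the 62 members, with 62 windows in all. The stretch from 50 bases before to 20 bases after the start is given for 5 members chosen from the 5 lowest and 5 highest mean ratios of each subunit (Rpl4, Rpl23, Rps4x, Rps6, Rps2) and for 3 members with long pyrimidine runs whose ratio on array 2 was near 0 (Rpl27a, Rpl7a, Rps18). Capitals mark a C followed by at least 4 pyrimidines between 10 bases before and 20 bases after the start. Rpl39l, Rpl13 and Rps27l, also among these lowest and highest means, are not printed. Their longest such runs were 7, 0 and 7 bases. The 3 members near 0 were picked for long runs, so the printed set does not show which members carry them more often.
Rpl4: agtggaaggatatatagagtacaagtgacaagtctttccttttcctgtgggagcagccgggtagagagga
Rpl23: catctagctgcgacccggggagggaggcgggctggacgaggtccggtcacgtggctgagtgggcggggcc
Rps4x: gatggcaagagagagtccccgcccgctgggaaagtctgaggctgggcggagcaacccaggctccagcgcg
Rps6: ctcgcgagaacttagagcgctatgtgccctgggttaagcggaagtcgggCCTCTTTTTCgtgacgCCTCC
Rps2: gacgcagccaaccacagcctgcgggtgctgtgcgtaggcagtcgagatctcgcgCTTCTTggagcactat
Rpl27a: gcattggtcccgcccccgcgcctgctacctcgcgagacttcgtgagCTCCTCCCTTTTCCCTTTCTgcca
Rpl7a: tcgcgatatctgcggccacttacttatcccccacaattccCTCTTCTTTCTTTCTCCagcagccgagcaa
Rps18: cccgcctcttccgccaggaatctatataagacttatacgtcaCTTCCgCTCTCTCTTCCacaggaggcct
These lie at chr9:64173337-64173406 (plus strand, Rpl4), chr11:97782420-97782489 (minus, Rpl23), chrX:102189372-102189441 (minus, Rps4x), chr4:86857348-86857417 (minus, Rps6), chr17:24720013-24720082 (plus, Rps2), chr7:109519145-109519214 (plus, Rpl27a), chr2:26910757-26910826 (plus, Rpl7a) and chr17:33955646-33955715 (minus, Rps18).

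A C followed by 7 or more pyrimidines stood in that interval in 20 of the 62 member windows (32.3%), against 9.33% of the 3903 windows of all tested genes and 8.68% of all 32851 windows. Begun exactly at the annotated start, the run was found in 12.9%, 1.05% and 0.779% of them. Annotated starts need not be the starts used in these cells, so a missing run says only that these letters are not in the interval. The hexamer CGGAAG, the core recognised by ETS-family factors, was counted on both strands of the whole window and was found in 61.3% of member windows, 32.5% of windows of tested genes and 16.9% of all windows. GGGCGG, the core bound by Sp1, was found in 58.1%, 62.6% and 35.7%, so members did not exceed the tested genes. CTTTCC was in 50.0%, 27.2% and 26.6%, and can overlap a pyrimidine run. AAGATGGC, which holds the core bound by YY1, was in 9.68%, 5.05% and 2.75%. TATAAA was in 11.3%, 8.02% and 13.6%, and the E-box CACGTG in 12.9%, 9.97% and 7.15%. The 35 members with CGGAAG had a median mean ratio of -0.076 and the 16 without it -0.10. For the pyrimidine run of 8 or more, the medians were -0.098 (20 members) and -0.076 (31 members). Averaged over arrays, both differences are small beside the range of the members' means, from -0.51 to 0.37, but single arrays differed more. With the run, medians on arrays 1, 2 and 3 were 0.16, -0.0087 and -0.45, and without it -0.019, 0.0014 and -0.25. With CGGAAG they were 0.066, -0.0058 and -0.27, and without it 0.13, -0.0036 and -0.37. For both features the difference on array 1 was opposite in sign to that on array 3. Whether ratios depend on either feature was not tested.

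Averaged over the 3 arrays, the ribosomal protein genes stayed close to an even ratio. Their medians on arrays 1, 2 and 3 were 0.045, -0.0065 and -0.30, so the averages combine arrays that differed. Their mean ratios ran from -0.51 to 0.37 with a median of -0.078, where all genes had a median of 0.034 and ran from -3.66 to 2.89. The interquartile range of members was -0.16 to 0.0053, and that of all genes -0.17 to 0.23. Of the 62 members, 46 had a negative mean and 16 a positive mean, where 1767 of all 3915 genes had a negative and 2148 a positive mean. By limma with Benjamini-Hochberg adjustment over all 3915 genes, 0 members were higher, where 1.38% of all genes were, and 0 were lower, where 1.4% were. At an unadjusted p below 0.05 by limma, 0 members were higher, where 8.45% of all genes were, and 1 (Rpl3) was lower, where 6.41% were. By an ordinary one-sample statistic, 1 member (Rps2) was higher and 0 were lower at an unadjusted p below 0.05, where 7.25% and 4.78% of all genes were, and 0 passed after adjustment, where 0.0255% of all genes were higher and 0.0% lower. The smallest limma adjusted p of a member was 0.241 (Rpl3).

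**Figure D1:**
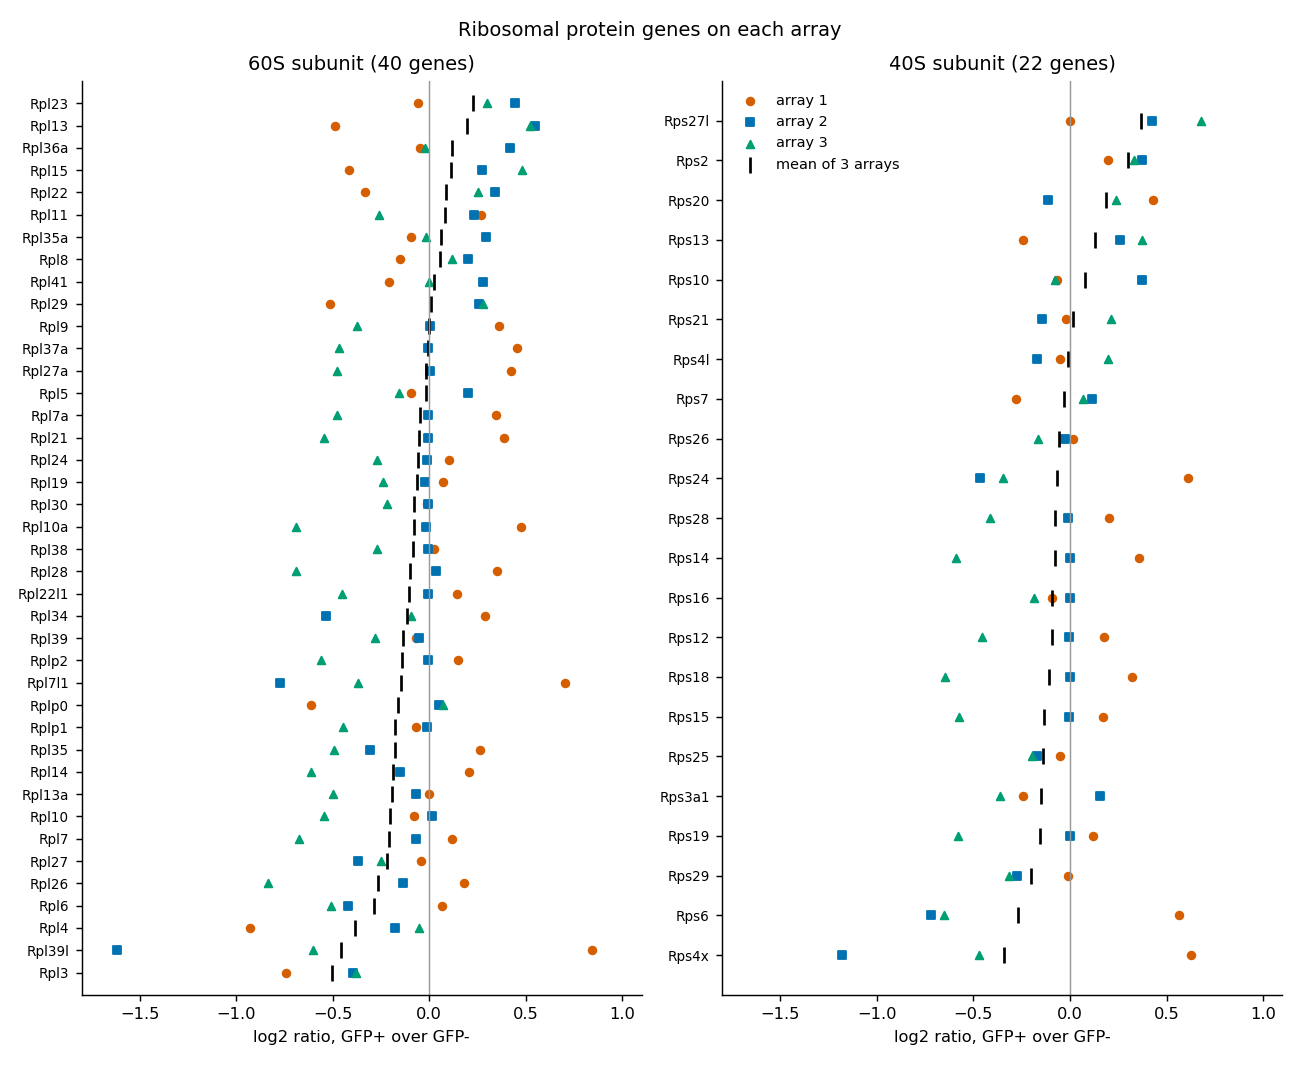
Log2 ratio of each ribosomal protein gene on array 1 (circles), array 2 (squares) and array 3 (triangles), with the mean as a bar, ordered by mean within the 60S (40 genes) and 40S (22 genes) subunit. Means run from -0.51 (Rpl3) to 0.37 (Rps27l), and for many genes the squares sit on the zero line with circles to the right and triangles to the left.

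With all 3 arrays the 2 subunits had nearly the same centre. The median of mean ratios was -0.082 for the 60S and -0.077 for the 40S genes, a difference (60S minus 40S) of -0.0044. On arrays 1, 2 and 3 the median of the 60S genes was 0.045, -0.0072 and -0.33, and that of the 40S genes 0.066, -0.0043 and -0.26. The difference on each array was -0.021, -0.0029 and -0.068 (SD over arrays 0.034). From array 1 to array 3 the 60S median moved by more than any of these differences, as did the 40S median, but the difference on array 3 exceeded the shift of the 60S median from array 1 to array 2. Without array 1 the difference between the subunits was -0.086, with array 2 or array 3 left out it was -0.021 and -0.0088, and 3 arrays allow no exact two-sided sign test below 0.25. With means over members in place of medians the difference was -0.050, and on array 2 it had the opposite sign (0.033). By medians the difference was thus negative on every array, though only -0.0029 on array 2, and by means no direction held on every array. The share of negative values was 82.5% of 60S and 68.2% of 40S genes on array 3, and 47.5% and 45.5% on array 1.

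**Figure D2:**
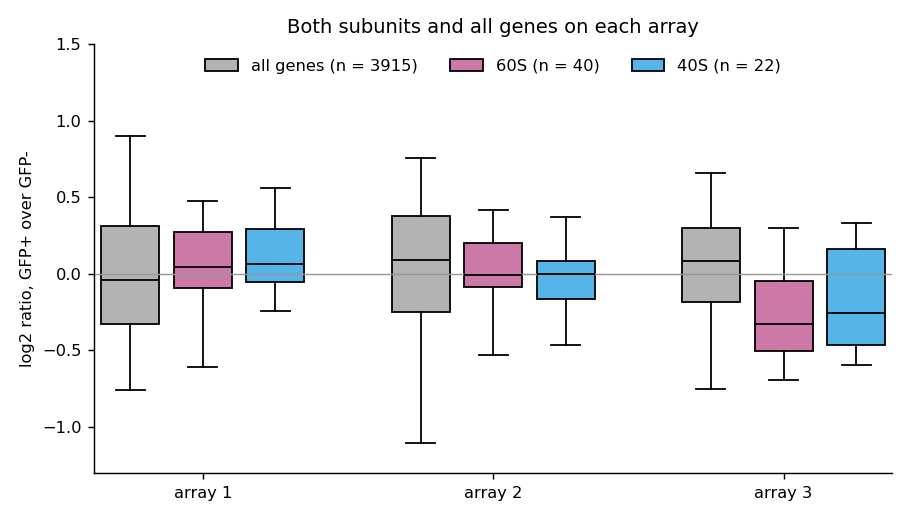
Log2 ratios of all 3915 genes (grey), 40 60S genes (pink) and 22 40S genes (blue) on each array. Lines are medians, boxes the interquartile range and whiskers the 5th to 95th percentile; the 60S and 40S medians lie side by side on each array, at 0.045 and 0.066 on array 1 and at -0.33 and -0.26 on array 3.

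Among 60S proteins, Rpl3, which reaches toward the peptidyl transferase centre, had the lowest mean. Its log2 ratios were -0.74, -0.39 and -0.38 on arrays 1, 2 and 3 (mean -0.51 ± 0.21, SD, or 1.42-fold lower; limma adjusted p = 0.241). It was below 0 on every array, yet did not pass over all genes. Rpl4, whose long loop lines the exit tunnel, had -0.93, -0.18 and -0.054 (mean -0.39 ± 0.47), so most of its distance from 0 came from array 1. Rpl6 had 0.066, -0.42 and -0.51 (mean -0.29 ± 0.31). Rpl26, a protein near the tunnel exit, had 0.18, -0.14 and -0.83 (mean -0.26 ± 0.52). Neither of these last 2 kept one sign.

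At the other end, Rpl23, which can bind the p53 regulator Mdm2, had the highest 60S mean, with -0.059, 0.45 and 0.30 (mean 0.23 ± 0.26; limma adjusted p = 0.597). Rpl13 had -0.49, 0.55 and 0.52 (mean 0.19 ± 0.59). Its SD exceeded its mean, with array 1 opposite to the others. Rpl15 showed the same split, with -0.42, 0.27 and 0.48 (mean 0.11 ± 0.47), and so did Rpl22, an RNA-binding protein that lymphocyte development depends on, with -0.33, 0.34 and 0.25 (mean 0.087 ± 0.36). Rpl36a had -0.050, 0.42 and -0.022 (mean 0.12 ± 0.26), high on array 2 alone. None of the 5 was positive on every array. The 30 60S genes between these extremes had means from -0.22 (Rpl27) to 0.079 (Rpl11). Rpl27 had -0.041, -0.37 and -0.25, and Rpl35, which sits by the tunnel exit, had 0.26, -0.31 and -0.49.

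The stalk, which recruits elongation factors to the large subunit, is made of Rplp0, Rplp1 and Rplp2, and all 3 had a negative mean (median -0.16). Rplp0, its base, had -0.61, 0.048 and 0.069 (mean -0.16 ± 0.39). Rplp1 had -0.071, -0.012 and -0.45 (mean -0.18 ± 0.24), and Rplp2 0.15, -0.0087 and -0.56 (mean -0.14 ± 0.37). The acidic pair, Rplp1 and Rplp2, was thus low on array 3 and Rplp0 low on array 1. Rpl5 and Rpl11, which carry the 5S RNA into the subunit and hold back Mdm2 when assembly fails, stayed near 0: Rpl5 had -0.095, 0.20 and -0.16 (mean -0.018 ± 0.19) and Rpl11 0.27, 0.23 and -0.26 (mean 0.079 ± 0.29). Of 9 listed proteins of the exit tunnel and its rim, 6 were measured, with a median of -0.16 and 5 negative means. Beside these counts and that of the stalk, 46 of all 62 members had a negative mean. The 15 measured members of the 60S families shared with bacteria had a median of -0.16, and the 8 such 40S members -0.086. Together these 23 had a median of -0.094, and the 34 other members, paralogs left out, one of -0.073.

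In the small subunit, Rps4x, encoded on the X chromosome, had the lowest mean, with 0.62, -1.18 and -0.47 (mean -0.34 ± 0.91; limma adjusted p = 0.693). Rps6, the target of the S6 kinases, had 0.56, -0.72 and -0.66 (mean -0.27 ± 0.72). Both were high on array 1 and low on the others, by more than 1 log2 unit. Rps29, a small zinc-binding protein of the head, was negative on every array, with -0.013, -0.28 and -0.31 (mean -0.20 ± 0.16). Rps19, the gene most often mutated in Diamond-Blackfan anaemia, had 0.12, 0.0014 and -0.58 (mean -0.15 ± 0.37), and Rps3a1 had -0.24, 0.15 and -0.36 (mean -0.15 ± 0.27).

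Rps27l and Rps2 had the highest means of all 62 members. Rps27l, a p53-induced paralog of Rps27, had -0.0014, 0.42 and 0.68 (mean 0.37 ± 0.34, or 1.29-fold; limma adjusted p = 0.447). Rps2, which lies at the messenger RNA entry channel, had 0.20, 0.37 and 0.33 (mean 0.30 ± 0.093, or 1.23-fold; limma adjusted p = 0.441). It was the one member positive on all 3 arrays, where 20.7% of all genes were. Rps20 had 0.43, -0.11 and 0.24 (mean 0.18 ± 0.27), Rps13 -0.24, 0.26 and 0.38 (mean 0.13 ± 0.33) and Rps10 -0.068, 0.37 and -0.080 (mean 0.075 ± 0.26). Each of these crossed 0 between arrays. The 12 40S genes between the extremes had means from -0.14 (Rps25) to 0.017 (Rps21). Rps25 had -0.051, -0.17 and -0.20, all on one side of 0, and Rps24 0.61, -0.47 and -0.35. By place in the subunit, the 10 measured proteins of the head had a median of -0.10 with 8 negative means, and the 10 of the body -0.064 with 7. Of all 22 40S genes, 16 had a negative mean.

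Negative on all 3 arrays were 9 members, 14.5% of them, where 15.3% of all genes were. They were Rpl3, Rpl4, Rpl13a, Rpl27, Rpl30, Rpl39 and Rplp1 of the large and Rps25 and Rps29 of the small subunit. With the positive Rps2, 10 of 62 members kept one sign, against 35.9% of all genes. The median SD over arrays was 0.32 for members and 0.31 for all genes.

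Among the members, 5 are paralogs of other ribosomal proteins, taken in by their spelling. Rpl39l, a paralog of Rpl39 known from testis, had the widest range of all members, with 0.84, -1.62 and -0.60 (mean -0.46 ± 1.24), whereas Rpl39 had -0.068, -0.054 and -0.28. Rpl7l1 had 0.70, -0.77 and -0.37 and Rpl7 0.12, -0.069 and -0.68. Rpl22l1 had 0.14, -0.0087 and -0.45, so that it lay above Rpl22 on array 1 and below it on the others (paralog minus gene 0.47, -0.35 and -0.70). Rps4l had -0.053, -0.17 and 0.19, where it was below Rps4x on array 1 and above it on arrays 2 and 3. In these 4 pairs the difference between paralogs changed sign between arrays. Without the 5 paralogs the 60S minus 40S difference was 0.0081.

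A large set of members shared one pattern over the arrays. On array 2, 20 members (13 of the 60S, 7 of the 40S) lay within 0.02 of 0, which is 32.3% of them, where 3.09% of all genes did; on array 1 it was 6 members (9.68%, all genes 3.5%) and on array 3 it was 2 (3.23%, all genes 4.39%). The limit of 0.02 was set after the values were seen; 4 more members lay within 0.05, among them Rpl19 (-0.023) and Rps26 (-0.025). The 20 were Rpl7a, Rpl9, Rpl10, Rpl10a, Rpl21, Rpl22l1, Rpl24, Rpl27a, Rpl30, Rpl37a, Rpl38, Rplp1, Rplp2, Rps12, Rps14, Rps15, Rps16, Rps18, Rps19 and Rps28. All 20 were negative on array 3, from -0.69 to -0.19 with a median of -0.47, and 16 were positive on array 1, with a median of 0.17. Rps18, for example, had 0.32, 0.00 and -0.65, and Rpl10a 0.47, -0.016 and -0.69. The 121 genes of the whole table within 0.02 of 0 on array 2, in contrast, had 62 negative values on array 3, and 16.5% of these genes were members, against 1.58% of all tested genes. Spot intensities were not analysed here, so signal over background and saturation of these probes were not tested.

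**Figure D3:**
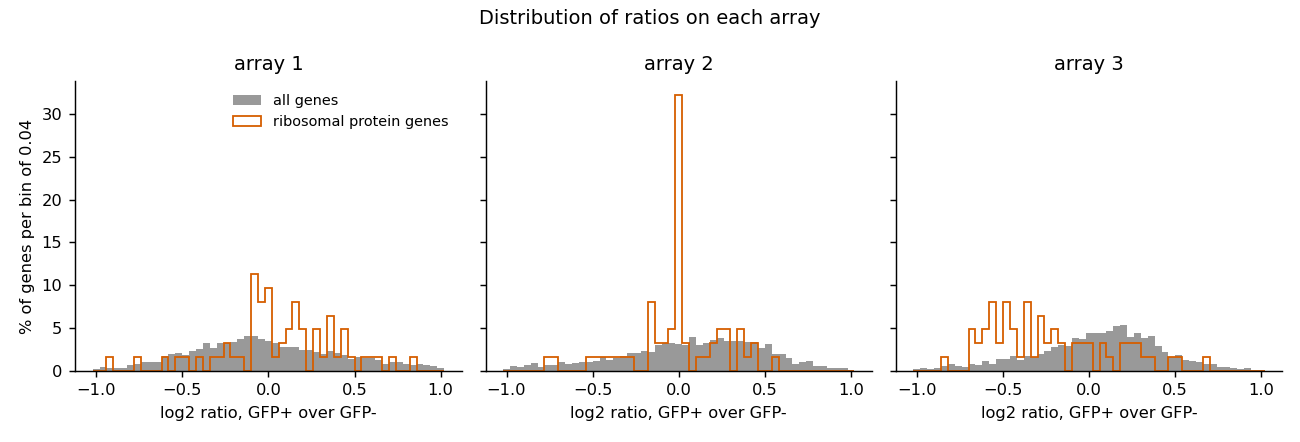
Share of all 3915 genes (grey) and of the 62 ribosomal protein genes (orange outline) in bins of 0.04 on the log2 ratio of each array; values beyond the axis are not drawn. On array 2 one bin at 0 holds 32.3% of the members, and on array 3 the members lie mostly below 0, with a median of -0.30.

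In all, 28 members (45.2%) fell in the order array 1 above array 2 above array 3, where 7.28% of all genes did. Array 1 was above both others for 36 members (58.1%), where it was for 34.6% of all genes, and below both for 16 (25.8%), where it was for 58.8%. Only 5 other genes combined a ratio within 0.02 of 0 on array 2, a higher one on array 1 and one on array 3 as low as those of the 20 members. They were the ribosomal protein gene Fau (0.28, -0.012 and -0.41), the tubulin Tuba1b (0.20, -0.0072 and -0.58), the cyclophilin Ppia (0.25, -0.017 and -0.54), Map4k4 (0.52, -0.012 and -0.78) and the elongin Eloc (0.37, -0.012 and -0.24), all found after their values were seen.

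Array 1 ran against the others in both subunits. Across the 62 members its ratios had a Pearson's r of -0.61 with the mean of arrays 2 and 3 (-0.627 over the 40 60S and -0.641 over the 22 40S genes), whereas arrays 2 and 3 had 0.484. Over all genes r between array 1 and that mean was 0.172. By rank (Spearman's rho) the same comparison gave -0.0066 over all genes and -0.644 over the members. Genes are not independent replicates, and members share arrays and labelling. They may also share high abundance, which was not analysed here. The sign on array 1 was opposite to that of the mean of arrays 2 and 3 for 48 members (77.4%), where 57.8% of all genes had this.

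**Figure D4:**
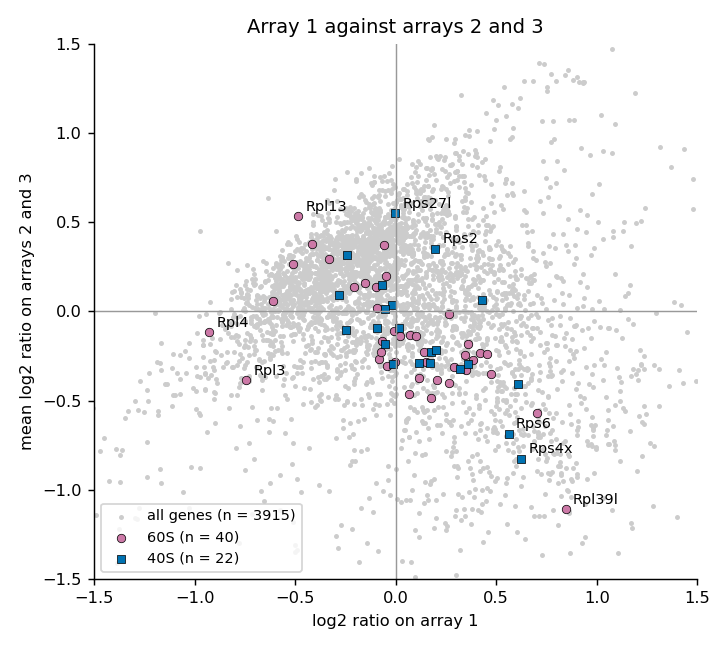
Log2 ratio on array 1 against the mean of arrays 2 and 3 for all genes (grey), 60S genes (pink circles) and 40S genes (blue squares); genes beyond 1.5 are not drawn. Members run from the upper left (Rpl13) to the lower right (Rpl39l, Rps4x, Rps6), with Pearson's r = -0.61 over the 62 members. Apart from this run, Rps2 and Rps20 lie in the upper right, and Rpl3 and Rpl4 are among the members in the lower left.

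Calls therefore rested on array 1. Without it, 7 members were higher, 11.3% of them, where 27.5% of all genes were, and 10 were lower, 16.1%, where 18.8% were. The higher members were Rpl13, Rpl15, Rpl22, Rpl23, Rps2, Rps13 and Rps27l, and the lower ones Rpl3, Rpl6, Rpl7l1, Rpl27, Rpl35, Rpl39l, Rps4x, Rps6, Rps24 and Rps29. By subunit this was 4 higher and 6 lower of the 60S and 3 higher and 4 lower of the 40S genes. Rps6 then had a mean of -0.69 and Rpl13 one of 0.53 (limma adjusted p = 0.00474 and 0.00904). With 2 arrays that resemble each other, shares near or under those of all genes are no result about the members. Array weights, which limma estimates from how well arrays fit together, came from its gene-by-gene method, since the default method did not converge on 3 arrays. They put most weight on array 3 (0.15, 1.55 and 4.3 for arrays 1, 2 and 3). With them 8 members were higher (12.9%), where 33.4% of all genes were, and 30 were lower (48.4%), where 22.0% were, 20 of the 60S and 10 of the 40S. On array 3, which these calls weigh most, 77.4% of members and 40.6% of all genes were negative. Without array 3 the median of the 62 members was 0.025 in place of -0.078, so its sign rested on that array.

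Probes of this family can share signal. In RefSeq, 214 pseudogenes are named after 47 of the 62 members, up to 23 after 1 gene (Rps12), and probe sequences were not analysed here. Probes of 2 pseudogenes were measured: Rpl30-ps2 had 0.088, 0.069 and 0.047, where Rpl30 had -0.010, -0.0043 and -0.22, and Rpl29-ps1 had 0.79, -0.25 and -0.025, where Rpl29 had -0.51, 0.26 and 0.28. Rpl35a, the one member with 2 probes that had values on all 3 arrays, gave values that lay within 0.065 of each other on each array.

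Genes outside the spelling of the rule were also described. The ribosomal proteins Fau (mean -0.049 ± 0.35) and Rpsa (0.035 ± 0.049) and the paralog Rpl36al (0.19 ± 0.40) did not pass. Of 75 listed ribosome assembly and RNA polymerase I genes, 35 were measured with a median of -0.020, and 0 passed by limma in either direction, where 1.38% of all genes were higher and 1.4% lower. At an unadjusted p below 0.05, 2 of the 35 were lower, where 6.41% of all genes were, and 0 were higher, where 8.45% were, so the lower count is no result about this list. Surf6 (-0.69 ± 0.64) and Noc2l (-0.45 ± 0.29), both nucleolar, were lowest, and the polymerase subunit Polr1c (0.40 ± 0.22) and the snoRNP protein Nhp2 (0.37 ± 0.32) highest. Of 18 other genes whose messengers are known to begin with pyrimidine runs, all were measured with a median of -0.13, and 0 passed by limma or at an unadjusted p below 0.05, against the same shares of all genes. The histone chaperone Nap1l1 (-0.58 ± 0.67) and nucleophosmin Npm1 (-0.52 ± 0.48) were lowest, and Naca (0.17 ± 0.40) and the initiation factor subunit Eif3k (0.16 ± 0.48) highest. Their medians on arrays 1, 2 and 3 were -0.21, -0.15 and -0.043, so these genes were not lowest on array 3 as the ribosomal protein genes were.

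Of the genes spelled as the rule asks, 5 lacked a value on some array and entered no comparison. Rps3 had -0.64 and 0.50 on arrays 1 and 2, Rps23 -0.27 and 0.12 on the same arrays, and Rpl32 -0.50 on array 3 alone, while Rpl37 and Rpl3l had no value.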

How the data were processed

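Amplified RNA of both fractions was read on 3 Mouse Compugen 22K oligonucleotide arrays. Per the labels, images were read with Imagene 5.5, the control channel was adjusted by Lowess (span 20%) and floored at 10. The values deposited by the authors are ratios on the log2 scale, a base read off the values: as powers of 2, 99.97% of them are whole thousandths (within 0.01). They are titled as filtered, by a rule not given in the sources used here. Arrays 1, 2 and 3 had 5182, 4983 and 6191 values of 22702 features. The number of arrays limits the precision. With the dyes and any dye swap not stated, a dye effect cannot be told apart from a difference between fractions.

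Probes with 1 platform symbol and values on all 3 arrays (3990 of 4402) were averaged to 3915 genes. A gene's mean ratio was compared with 0 by limma 3.58.1 (R 4.3.3; lmFit and eBayes, two-sided, Benjamini-Hochberg over all genes, threshold 0.05). In 10 simulated runs on 3915 genes with 200 changed, 47.6% of the genes shifted by log2 1 and 84.6% of those shifted by log2 2 were called, with 2.98% of calls false. The simulated arrays were independent and had the same spread for a gene, whereas the measured arrays 2 and 3 had a Pearson's r of 0.883. These shares therefore need not hold for the measured arrays. Members, lists and alternatives were chosen with earlier results of these data known. Named with every value are the 5 highest and 5 lowest means of each subunit, paralogs and preset genes; Rps27a was not analysed here. Alternatives covered arrays left out or weighted, centring, scaling, probe choice and the statistic. Protein sequences were not used here.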

Additional observations from a re-analysis of the deposited data

How the results depend on the processing

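The counts of calls depended on array 1. Leaving out 1 array in turn gave between 74 and 1815 called genes of all tested (109 with all arrays), 0 to 17 ribosomal protein genes, 0 to 10 60S genes and 0 to 7 40S genes, the upper values all without array 1. Array weights, which put most weight on array 3, gave 2170 genes, 38 ribosomal protein genes (8 higher, 30 lower), 25 of the 60S and 13 of the 40S. The ordinary statistic called 1 gene of all tested and 0 members. Under the centring, scaling, quantile, probe and symbol alternatives, 0 members were called. The same held with arrays 2 and 3 averaged and with values on at least 2 arrays. In these settings 0.741% to 1.94% of all genes were higher and 1.38% to 2.15% lower, so the 0 is no result about the members. The median of members lay between -0.12 and -0.032 in them. Over arrays left out it ran from -0.20 to 0.025. The 60S minus 40S difference ran from -0.086 to -0.0088 over arrays left out, and was -0.050 with means over members. The sign of a member's mean changed for 5 members without array 1, 13 without array 2 and 26 without array 3. Each ratio already sets GFP+ against GFP- RNA of the same array. No paired analysis was possible because, beyond that, the ratios form 1 group.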
